A study of Mus musculus with 6 samples.

Results

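Ccl17, Ccl22 and Ccl24 are 3 small secreted proteins of the CC chemokine family, and their genes were followed across macrophages in 3 states of polarization, each with and without the multikinase inhibitor regorafenib. The genes were picked by symbol, and they were proposed for description with their regorafenib and polarization ratios in these same libraries already known, so every value of the 3 genes is given as a description without a test. They are 3 of the 54446 gene IDs in the count table, and all belong to the 14917 genes that reached 10 counts in 1 or more libraries, the genes tested.

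RNA was sequenced from bone marrow-derived macrophages (BMDMs) of male BALB/c mice aged 6–8 weeks, grown for 7 days in medium with 20% L929-conditioned medium, a source of the growth factor CSF-1. For 24 hours the cells either stayed unpolarized (M0) or received a stimulus, which was LPS at 50 ng/mL together with IFN-γ at 20 ng/mL for M1 and IL4 at 20 ng/mL for M2. Regorafenib (1 µM) was added 1 hour before polarization, and the control libraries carry the label DMSO, the solvent. There were 6 libraries, 1 per condition, and the sources used here do not say how many mice gave the cells or whether they were pooled.

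CCL17 (also called TARC) and CCL22 (also called MDC) are ligands of the receptor CCR4, which is carried by T helper 2 cells and regulatory T cells, and CCL22 made by macrophages of tumors is known for drawing regulatory T cells. CCL24 is an eotaxin, a ligand of the receptor CCR3 on eosinophils. In macrophages and dendritic cells, IL-4 acting through the transcription factor STAT6 is known to induce all of these chemokines, and Ccl17 is also known as a gene induced by GM-CSF.

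In GRCm38, Ccl17 (ENSMUSG00000031780.2) lies at chr8:94810453-94812036 on the plus strand, with 1 annotated transcript and 514 exonic bases in 3 exons. Ccl22 (ENSMUSG00000031779.3) lies upstream on the same strand at chr8:94745590-94751699, with 2 transcripts and 2325 exonic bases in 4 separate exonic stretches. Ccl24 (ENSMUSG00000004814.10) lies on another chromosome, at chr5:135569937-135573049 on the minus strand, with 2 transcripts and 1295 exonic bases in 3 exonic stretches. No other annotated gene overlaps any of the 3, and 0% of their 100-base words occur in another gene, so no near-identical copy that could share their reads was found.

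The promoters of Ccl17 and Ccl22 are shown because both genes were higher with regorafenib in M1 and in M2. Each is the RefSeq window of 250 bases before the annotated start, in GRCm38.p6, on the plus strand, at chr8:94810203-94810452 for Ccl17 and chr8:94745434-94745683 for Ccl22. Capitals mark matches to the motifs that were searched.
Ccl17: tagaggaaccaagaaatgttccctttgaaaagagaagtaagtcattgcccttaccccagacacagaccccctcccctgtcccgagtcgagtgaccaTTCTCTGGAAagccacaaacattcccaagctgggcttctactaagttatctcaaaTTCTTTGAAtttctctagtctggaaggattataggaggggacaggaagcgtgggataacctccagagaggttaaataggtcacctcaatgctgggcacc
Ccl22: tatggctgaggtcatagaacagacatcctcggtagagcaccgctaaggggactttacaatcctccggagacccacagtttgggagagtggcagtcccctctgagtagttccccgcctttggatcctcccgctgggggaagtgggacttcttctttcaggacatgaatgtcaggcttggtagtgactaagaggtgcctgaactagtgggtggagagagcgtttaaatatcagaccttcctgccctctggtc
The motifs, searched on both strands, were TTC and GAA with any 4 bases between them (the spacing preferred by STAT6), TTC and GAA with any 3 bases between them (the spacing of other STAT proteins), the kB motif of NF-kB, TGANTCA (AP-1), and GAAA repeated with any 2 bases between (bound by interferon regulatory factors). The Ccl17 window held the 4-base spacing at positions −154 to −145 from the start, as TTCTCTGGAA. It also held the 3-base spacing at positions −99 to −91, as TTCTTTGAA, and these matches did not overlap. Among 32851 promoter windows of the same length, 5.85% held the 4-base spacing, 7.02% the 3-base spacing, 7.25% the kB motif, 6.75% TGANTCA and 2.98% the GAAA repeat. The Ccl22 window held a match to none of the 5 motifs, which says only that these letters are not in this window. The RefSeq start of Ccl22 lies downstream of the start in the Gencode annotation, so its window reaches into the longer Gencode gene model.

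Levels are given as CPM, the counts scaled to library size with TMM factors between 0.820 and 1.12, on library totals between 25359309 and 34898342 counts. Every interval below is a 95% interval of the counts of 1 gene and covers counting error only. With 1 library per condition, no difference has a replicate check, and each ratio compares a pair of libraries rather than the conditions. The floor was set at 3 counts of a gene per library, which corresponds to 0.0822 to 0.124 CPM. A gene is said below to be higher or lower, or called, when it changed at least 2-fold with an interval that leaves out no change. The cultures carried macrophage RNA throughout, as all 8 genes of a macrophage list (Adgre1, Cd68, Mertk, Fcgr1, Itgam, Cd14, Lyz2 and Csf1r) were above the floor in every library. With regorafenib, Fcgr1 was lower in all 3 states (log2 ratios −1.48 in M0, −1.23 in M1 and −1.25 in M2), Mertk was higher in M0 (1.59) and M2 (1.34), and Cd14 was lower in M0 (−1.04). The other 5 genes of the macrophage list were not called with regorafenib in any state.

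Ccl17 was close to silent in M0 and highest in M1 with regorafenib. It had 1 count in the M0 control and 0 counts in M0 with regorafenib, where the floor of 3 counts is 0.0910 CPM. In M1 it had 19 counts (0.735 CPM) in the control and 375 counts (15.6 CPM) with regorafenib. In M2 it had 4 counts (0.11 CPM) in the control and 38 counts (1.36 CPM) with regorafenib. Regorafenib was thus the higher library in both polarized states, and in M0 no ratio can be given.

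Ccl22 was likewise highest in M1 with regorafenib, and lowest in M0. It had 9 counts (0.293 CPM) in the M0 control and 5 counts (0.152 CPM) in M0 with regorafenib. In M1 it had 1295 counts (50.1 CPM) in the control and 6114 counts (254 CPM) with regorafenib. In M2 it had 172 counts (4.71 CPM) in the control and 405 counts (14.5 CPM) with regorafenib. The highest Ccl22 level in M2 was below the lower of the M1 levels.

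Ccl24 had another distribution, with no more than 2 counts in either M1 library. It had 2 counts (0.0651 CPM) in the M0 control and 29 counts (0.880 CPM) in M0 with regorafenib. In M1 it had 2 counts in the control and 2 counts with regorafenib. In M2 it had 15 counts (0.411 CPM) in the control and 181 counts (6.47 CPM) with regorafenib, its highest level. Ccl24 was therefore seen mainly in the states without IFN-γ and LPS, and mainly with the drug.

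**Figure D1:**
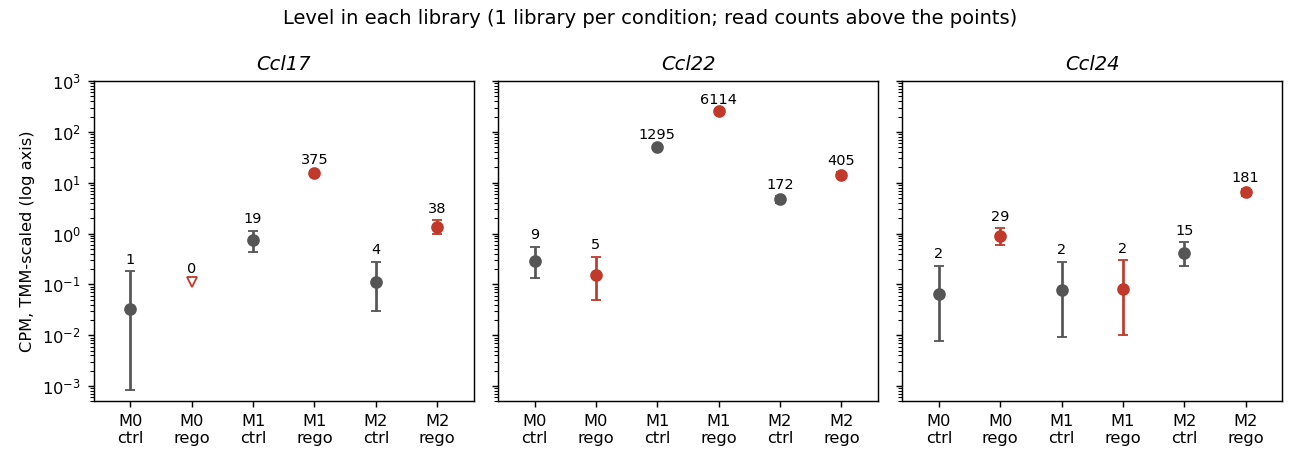
Level of Ccl17, Ccl22 and Ccl24 in each of the 6 libraries, in CPM scaled with TMM on a log axis, with exact Poisson 95% intervals. Ccl17 and Ccl22 peak in M1 with regorafenib at 15.6 and 254 CPM, and Ccl24 peaks in M2 with regorafenib at 6.47 CPM.

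Per kilobase of exon, Ccl22 was above Ccl17 in every polarized library. The levels per kilobase in M1 were 21.6 CPM for Ccl22 and 1.43 CPM for Ccl17 in the control, and 109 CPM and 30.3 CPM with regorafenib. In M2 with regorafenib the 3 genes were closest to each other as a ratio, at 6.23 CPM per kilobase for Ccl22, 5.0 for Ccl24 and 2.64 for Ccl17. In the M2 control the same levels per kilobase were 2.03, 0.317 and 0.213.

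The libraries could be ordered by level for most neighbours. For Ccl22 the order was M1 with regorafenib, M1 control, M2 with regorafenib, M2 control and M0 control, with each neighbour apart beyond counting error, while the intervals of both M0 libraries did not separate (log2 difference 0.95, −0.78 to 2.88). For Ccl17 the M2 regorafenib library came second, narrowly above the M1 control (log2 difference 0.89, 0.05 to 1.76), and the M2 and M0 controls were not separated (1.75, −1.59 to 7.37). For Ccl24 the M0 regorafenib library came second after M2 with regorafenib, above the M2 control (1.10, 0.15 to 2.10), and the M1 libraries and the M0 control were all at the floor.

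The comparison of regorafenib with control asks how each chemokine gene differed with the drug within a state. In M1, Ccl17 and Ccl22 were higher with regorafenib, 2 of the 3 genes, where 1.17% of all genes tested were called higher. Ccl17 was 21.2-fold higher (log2 ratio 4.40, 3.74 to 5.15), which ranked 2 of 14917 genes from the highest ratio. Ccl22 was 5.06-fold higher (2.34, 2.25 to 2.43) and ranked 71. Ccl24 had no ratio in M1, and no member was lower, where 2.3% of genes were called lower. In these bulk samples, fewer cells of a type and less RNA per cell cannot be told apart.

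In M2, all 3 genes were higher with regorafenib, where 5.03% of genes were called higher. Ccl24 was 15.7-fold higher (log2 ratio 3.98, 3.22 to 4.84) and ranked 24 of 14917. Ccl17 was 12.4-fold higher (3.63, 2.16 to 5.58) and ranked 40, on 4 counts in the control library. Ccl22 was 3.07-fold higher (1.62, 1.36 to 1.89) and ranked 447. In M0, Ccl24 was higher, 1 of the 3 genes, where 7.81% of genes were called higher. Its ratio of 13.5 (3.42 to 117) rests on 2 counts in the control library, and the log2 ratio was 3.76 (1.77 to 6.87). With 1 CPM added to both values it was 0.82, under the 2-fold change that a call needs. Ccl22 was not called in M0 (log2 ratio −0.95, −2.88 to 0.78). As the genes were chosen with these ratios known, nothing is read from their counts against these percentages.

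**Figure D2:**
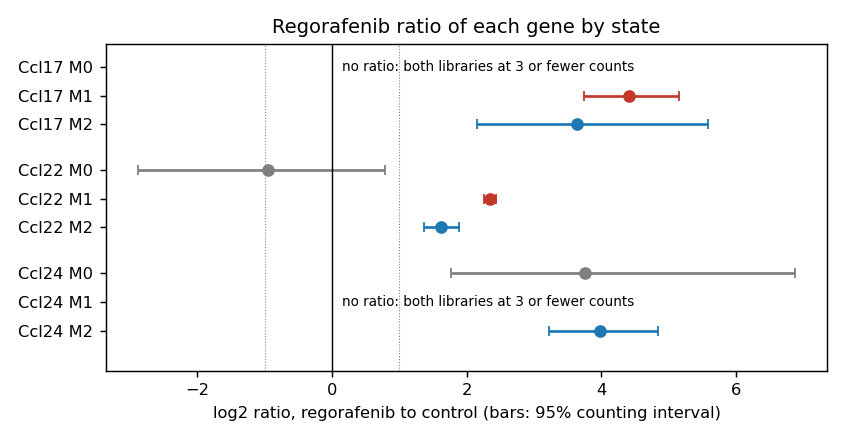
Log2 ratio of regorafenib to control for each gene in each state, with the conditional exact binomial 95% interval of its counts; dotted lines mark a 2-fold change. Ccl17 lies at 4.40 in M1 and 3.63 in M2, Ccl22 at 2.34 and 1.62, and Ccl24 at 3.98 in M2, while the Ccl22 interval in M0 holds 0.

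The sizes of these ratios differed between states for Ccl22. Its log2 ratio was larger in M1 than in M2 by 0.72 (0.45 to 0.99), and larger than in M0 by 3.29 (1.71 to 4.87) for M1 and by 2.57 (0.97 to 4.17) for M2. For Ccl17 the difference between M1 and M2 was 0.77 with an interval that holds 0 (−0.86 to 2.4), and for Ccl24 the difference between M2 and M0 was 0.22 (−1.98 to 2.42). The counts of Ccl17 and Ccl24 leave differences of either sign possible.

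The CCR4 ligands also differed from each other. The log2 ratio of Ccl17 exceeded that of Ccl22 by 2.06 in M1 (1.39 to 2.73) and by 2.01 in M2 (0.50 to 3.52). Within a library, where no scaling enters, there were 68.2 Ccl22 counts per Ccl17 count in the M1 control and 16.3 with regorafenib, and 43.0 and 10.7 in M2. Expressed as a share of the summed counts of the pair, Ccl17 was 1.45% in the M1 control (exact Clopper-Pearson interval 0.873% to 2.25%) and 5.78% with regorafenib (5.22% to 6.37%). In M2 the share was 2.27% in the control (0.623% to 5.72%) and 8.58% with regorafenib (6.14% to 11.6%). The intervals of control and regorafenib did not overlap in either state. In M2 the log2 ratio of Ccl22 was below that of Ccl24 by 2.36 (interval of Ccl22 minus Ccl24 −3.16 to −1.56), while those of Ccl17 and Ccl24 were not separated (−0.35, −2.01 to 1.32).

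The comparison of polarized with unpolarized cells asks how the genes differed with the stimuli. In the control libraries, Ccl17 and Ccl22 were higher in M1 than in M0, 2 of the 3 genes, where 16.1% of genes were called higher. Ccl22 was 171-fold higher (log2 ratio 7.42, 6.49 to 8.55), and Ccl17 had a ratio of 22.6 (3.59 to 939) on 1 count in M0. No member was lower, where 18% of genes were called lower. In M2 against M0, Ccl22 and Ccl24 were higher, 2 of the 3 genes, where 3.55% of genes were called higher. Ccl22 was 16.1-fold higher (4.01, 3.05 to 5.16), and Ccl24 had a ratio of 6.31 (1.47 to 56.9) on 2 counts in M0. Ccl17 had 4 counts in M2 and 1 in M0, and its interval held 0 (1.75, −1.59 to 7.37). No member was lower in M2, where 6.64% of genes were called lower. With 1 CPM added, the log2 ratios of Ccl17 in M1 (0.75) and of Ccl24 in M2 (0.41) were also under a 2-fold change. The M1 and M2 ratios share the M0 library.

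With regorafenib, Ccl17 and Ccl22 were higher in M1 than in M0, 2 of the 3 genes, where 15.4% of genes were called higher, and Ccl24 was lower, where 19.4% were called lower. The log2 ratio of Ccl22 was 10.71 (9.48 to 12.33), Ccl17 was at least 171-fold higher against the floor of 3 counts in the M0 library (95% lower limit of the log2 ratio to its 0 counts 7.11), and Ccl24 had a log2 ratio of −3.41 (−6.52 to −1.42) on 2 counts in M1. In M2 against M0, still with the drug, all 3 genes were higher and none lower, where 3.76% of genes were called higher and 3.81% lower. Ccl22 had a log2 ratio of 6.58 (5.34 to 8.21) and Ccl24 of 2.88 (2.31 to 3.50), and Ccl17 was at least 14.9-fold higher against the same floor (95% lower limit 3.53 on the log2 scale). Both folds take the count of the higher library without its counting error. With 1 CPM added to both values, the log2 ratio of Ccl24 in M1 over M0 was −0.80, under a 2-fold change.

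The direct contrast of M1 with M2 separated the CCR4 ligands from Ccl24. In the control libraries, Ccl22 was 10.6-fold (9.07 to 12.5) and Ccl17 6.71-fold (2.23 to 27.1, on 4 counts in M2) higher in M1 than in M2. With regorafenib these values were 17.5-fold (15.8 to 19.4) and 11.5-fold (8.19 to 16.4). The control and regorafenib intervals of Ccl17 overlap, and those of Ccl22 do not. Ccl24 went the other way, with a log2 ratio of M1 to M2 of −2.41 (−5.58 to −0.30) in the controls and −6.28 (−9.34 to −4.41) with regorafenib. The Ccl24 ratios rest on 2 counts in each M1 library.

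Between Ccl22 and Ccl17 on chromosome 8 lies Cx3cl1, which encodes fractalkine, the ligand of CX3CR1. Its gap is 20310 bases to Ccl22 and 28026 bases to Ccl17. Cx3cl1 had 29 and 32 counts in M0 (control and regorafenib), 63 and 359 in M1, and 22 and 39 in M2. Its log2 ratio of regorafenib to control was 0.04 in M0 (−0.73 to 0.82), 2.61 in M1 (2.22 to 3.02) and 1.21 in M2 (0.42 to 2.03), so it was called higher in M1 and M2 together with both neighbours. The other 7 tested genes within 100 kb of Ccl17 or Ccl22 (Rspry1, Arl2bp, Ciapin1, Coq9, Polr2c, Dok4 and Ccdc102a) were not called with regorafenib in any state. Their log2 ratios lay between −1.22 and 0.18 in M1 and between −0.44 and −0.04 in M2. The lowest of them, Ccdc102a in M1, has an interval that holds 0.

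**Figure D3:**
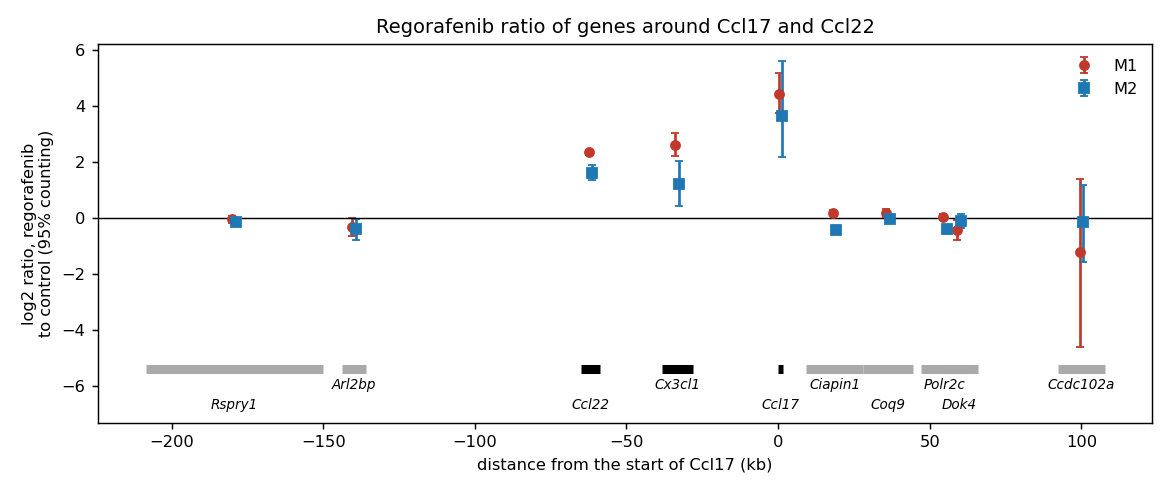
Log2 ratio of regorafenib to control in M1 and M2 for Ccl17, Ccl22, Cx3cl1 and the 7 other tested genes within 100 kb, by distance from the start of Ccl17 in kb, with 95% counting intervals. The 3 chemokine genes (black bars) lie above 1 in both states, and the 7 others (grey bars) lie at or below 0.18.

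Around Ccl24, 3 other genes were tested, and none was called with regorafenib in M1 or M2, beside the shares just given. They were Hip1, Rhbdd2 and Por, with log2 ratios between −0.96 and 0.01 in M2. Hip1 was lower in M0 (−1.10), where 9.59% of genes were called lower. Ccl26, another eotaxin gene next to Ccl24, had 0 counts in all 6 libraries.

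The genes whose levels ran closest to each member across the 6 libraries were ranked by the root mean square difference of centred log2(CPM + 1) among 11307 named genes that reached 100 counts in any library. For Ccl17 they were Cx3cl1 (0.44, Pearson r 0.97), H2-Ob (0.56), Il2ra (0.57), Car2 (0.63) and Csf2 (0.69), where H2-Ob encodes a chain of the class II chaperone H2-O, Il2ra the α chain of the IL-2 receptor, Car2 a carbonic anhydrase and Csf2 the cytokine GM-CSF. For Ccl22 they were Rasgrp1 (0.81), Socs1 (0.92), Bcl2a1d (0.92), Slc7a2 (0.94) and Tarm1 (1.02). From control to regorafenib in M1, Ccl22 went from 50.1 to 254 CPM and Bcl2a1d from 35.6 to 164 CPM. There Rasgrp1 went from 121 to 154 CPM and Socs1 from 212 to 221 CPM. Slc7a2 went down from 7821 to 6987 CPM and Tarm1 from 137 to 78.0 CPM, so not all followed Ccl22 with the drug. Socs1 encodes a feedback inhibitor of cytokine signaling and Slc7a2 an arginine transporter, and Bcl2a1d has close copies (54.7% of its 100-base words occur elsewhere in the transcriptome), so its value is uncertain. For Ccl24 they were Snn (0.28), Rab11fip4 (0.32), Krt13 (0.36), Ddhd1 (0.39) and Tppp3 (0.39), none of them a chemokine gene. Between the members, Pearson r over the 6 libraries was 0.86 for Ccl17 with Ccl22, −0.07 for Ccl17 with Ccl24 and −0.09 for Ccl22 with Ccl24. These values describe 6 points that share libraries and depth.

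**Figure D4:**
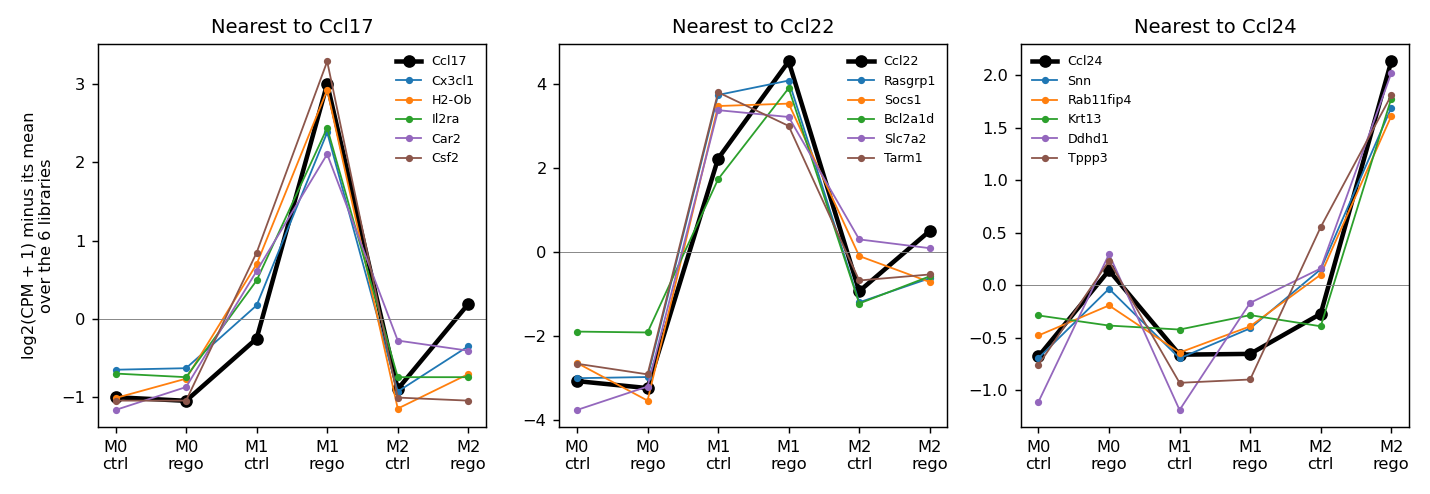
Centred log2(CPM + 1) of each of the 3 chemokine genes in the 6 libraries, with the 5 genes nearest in pattern by root mean square difference. The genes nearest to Ccl17 and Ccl22 peak in the M1 libraries, and those nearest to Ccl24 peak in M2 with regorafenib.

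The receptors of these ligands were read in the same libraries. Ccr4, the receptor of CCL17 and CCL22, had 3 counts in the M1 control, 26 in M1 with regorafenib and 0 in the other 4 libraries, and its log2 ratio in M1 was 3.22 (1.51 to 5.58). Ccr3, the receptor of CCL24, had 58 and 13 counts in M0 (control and regorafenib), 12 and 7 in M1, and 261 and 28 in M2. Ccr3 was lower with regorafenib in M0 (log2 ratio −2.26, −3.25 to −1.37), where 9.59% of genes were called lower, and in M2 (−2.84, −3.45 to −2.27), where 3.83% were called lower. Its M1 interval held 0 (−0.68, −2.26 to 0.78). In M0 and in M2, the ligand Ccl24 was thus higher and its receptor Ccr3 lower with regorafenib. The atypical receptors Ackr1 and Ackr2, which take up chemokines, were at the floor in every library.

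Of 21 CC chemokine genes listed, 15 were tested. In M1, 2 were called higher with regorafenib, Ccl17 and Ccl22, and 0 lower, beside 1.17% of all genes called higher and 2.3% lower. In M2, the 3 members were the only ones called higher of the 15, and 6 were lower (Ccl2, Ccl3, Ccl4, Ccl7, Ccl8 and Ccl12). The shares of all genes in M2 were 5.03% higher and 3.83% lower. In M0, Ccl24 and Ccl27a were higher and 6 were lower (Ccl2, Ccl3, Ccl4, Ccl7, Ccl9 and Ccl12), beside 7.81% of all genes called higher and 9.59% lower. The members were chosen with these ratios known, so nothing is read from their place among the 15. Ccl2, the main ligand for monocytes, had log2 ratios of −6.34 in M0, 0.91 in M1 and −5.18 in M2. Among genes above the floor in at least 1 library of the pair, the median log2 ratio of the list was −1.19 in M0 (14 genes), 0.75 in M1 (12 genes) and −1.06 in M2 (14 genes), beside medians over all such genes of 0.00, −0.02 and −0.02. Ccl27a, on 2 and 16 counts, also has copies, as 26.5% of its 100-base words occur in other genes.

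**Figure D5:**
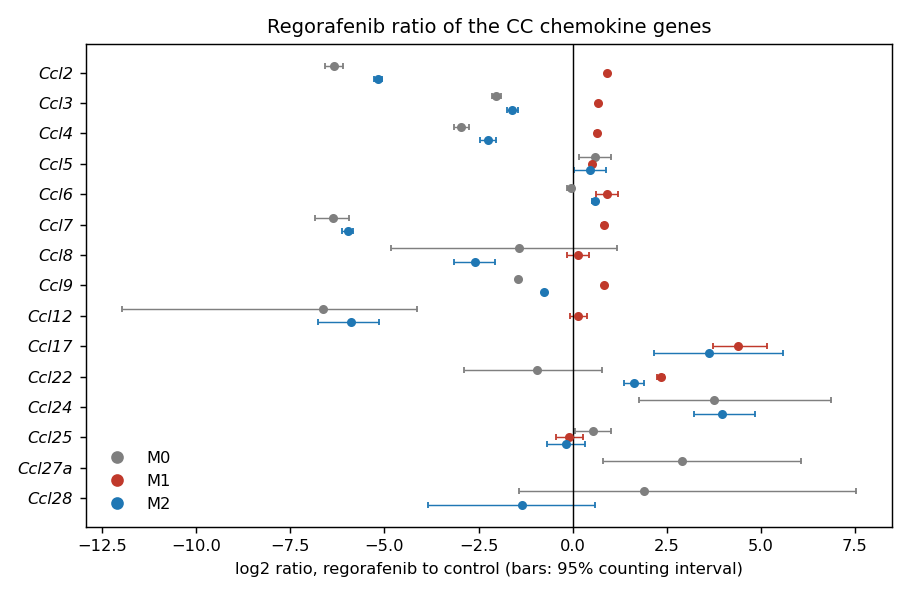
Log2 ratio of regorafenib to control for the CC chemokine genes in M0, M1 and M2, with 95% counting intervals; a gene with a count of 0 in a library of the state, or with 3 or fewer counts in both, has no point there. Ccl17, Ccl22 and Ccl24 lie to the right of 0 in M2, and Ccl2, Ccl3, Ccl4, Ccl7, Ccl8 and Ccl12 to the left.

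A list of 12 genes of the IL-4 receptor and its signal was read beside the members. In M1, 0 were higher and 0 lower, with a median log2 ratio of −0.08, beside 1.17% of all genes called higher and 2.3% lower. In M2, 2 were higher, the receptor chain Il13ra1 (1.28) and the transcription factor Irf4 (1.29, 1.17 to 1.42, on 855 and 1607 counts), and 0 were lower, with a median of 0.40, beside 5.03% of all genes called higher and 3.83% lower. In M0, Il4ra (1.07), Irf4 (1.46) and Kdm6b (1.22) were higher and Myc (−2.67) was lower, with a list median of 0.43, beside 7.81% of all genes called higher and 9.59% lower. The medians of all genes above the floor were 0.00 in M0, −0.02 in M1 and −0.02 in M2, for these lists and those that follow. Stat6, the factor that IL-4 activates, was called in none of the regorafenib comparisons.

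Of 7 genes of GM-CSF and its receptor signal, Csf2 was higher in M1, with 70 counts in the control and 462 with regorafenib (log2 ratio 2.82, 2.46 to 3.21). It had no more than 1 count in any M0 or M2 library. Csf2rb, a receptor chain, was higher in M0 and in M2 (1.09 in M2), and Csf2rb2 was higher in M0 (3944 and 8485 counts, at the 2-fold threshold), a call that was lost with DESeq2 size factors. These receptor genes share 4.63% and 6.82% of their 100-base words with other genes. The medians of the list were 0.52, 0.08 and 0.61 in M0, M1 and M2. Of 5 NF-kB subunit genes, Relb was higher in M0 (1.23) and in M2 (1.80), and 0 were called in M1. Beside both lists, 7.81%, 1.17% and 5.03% of all genes were called higher in M0, M1 and M2, and 9.59%, 2.3% and 3.83% lower. The medians of the NF-kB subunits were 0.41, 0.19 and 0.60.

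Ccl17 and Ccl22 are also known from dendritic cells, so a list of 10 dendritic cell markers was read beside them. Its summed level was 11.8 and 15.5 CPM in M0 (control and regorafenib), 53.2 and 74.0 in M1, and 164 and 348 in M2, and most of the M2 sum came from Itgax, an integrin gene that macrophages also use. With regorafenib, 2 of its 6 tested genes were higher in M1 (Xcr1 and Batf3) and 4 in M2 (Zbtb46, Fscn1, Itgax and Batf3), with 0 lower in either state. Of all genes, 1.17% and 5.03% were called higher in M1 and M2, and 2.3% and 3.83% lower. In M0, Fscn1 was higher and Zbtb46 lower (log2 ratio −1.59, −3.41 to −0.03), beside 7.81% of all genes called higher and 9.59% lower, and the Zbtb46 call was lost with upper quartile scaling. Flt3 had at most 3 counts and Clec9a at most 1 in any library, whereas Ccr7 had 780 and 827 counts in M1. Without Itgax, the M0 libraries summed to 1.56 and 1.79 CPM, the M1 libraries to 36.2 and 46.2 CPM and the M2 libraries to 3.64 and 10.4 CPM, for control and regorafenib in turn. Most of the M1 sum without Itgax was Ccr7, which was not called with regorafenib, while Zbtb46 (59 counts) and Batf3 (194 counts) were highest in M2 with regorafenib. The part of dendritic cells in the Ccl17 and Ccl22 values was not tested.

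The defining markers of eosinophils, mast cells, basophils and lymphocytes were mostly at or near 0. Of 4 eosinophil markers, Epx had 0 counts in every library and Prg2 at most 1, while Siglecf, which some macrophages carry, had 80 counts in the M2 control and 233 with regorafenib and was higher there (log2 ratio 1.93), as Ccl24 was. The summed level of the eosinophil markers ran from 0.290 to 8.33 CPM. All 4 mast cell and basophil markers were at 0 in all libraries, and Cd3e, Cd8a and Ms4a1 of the 6 T and B cell markers were at 0 as well. Cd4, which some macrophages carry, had 4 and 22 counts in M0 (control and regorafenib) and 1 and 7 in M2, and it was higher with regorafenib in M0 (log2 ratio 2.36, 0.80 to 4.35) and in M2 (3.19, 0.23 to 8.69), as Ccl24 was. The T and B cell list summed to at most 0.698 CPM. Of 4 neutrophil markers Ly6g was at 0 in every library, and the summed level was between 84.8 and 158 CPM. S100a8 had 1804 counts in the M1 control and 489 with regorafenib (log2 ratio −1.78, −1.93 to −1.64) and was lower in that comparison. S100a9 had 0 counts in the M2 control and 11 with regorafenib and was higher there. Mpo, a gene of immature myeloid cells, had 2064 to 5124 counts. The 4 fibroblast markers summed to 3.06 CPM in the M0 control and 9.80 CPM in M0 with regorafenib. There Col1a1 (log2 ratio 1.52) and Col1a2 (1.93) were higher along with Ccl24, beside 7.81% of all genes called higher. In M1 the fibroblast sum was 8.63 CPM in the control and 6.56 CPM with regorafenib, with Dcn lower (−1.26). In M2 it was 3.34 and 5.43 CPM, and 0 of the 4 markers were called, while Ccl24 was higher. The part of these cells in the chemokine and receptor values was not tested.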

How the data were processed

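Poly(A) RNA of 6 macrophage samples was sequenced with a stranded kit, 1 library per condition. The authors trimmed the reads with cutadapt 2.4, mapped them to GRCm38 with STAR 2.7.2a and counted reads per gene on Gencode M19, and deposited whole-number counts, not normalized. The strand setting is not given in the sources used here. Gene names came from Gencode M21: of 54446 IDs, 53229 matched with version, 1180 without it, and 37 had no name.

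Counts were scaled with TMM (edgeR 4.0.16, R 4.3.3) over 6 libraries. Ratios carry conditional exact binomial 95% intervals, and differences of ratios an interval from the reciprocals of the counts. A gene was called at 2-fold or more with an interval leaving out 0, among genes reaching 10 counts in any library. A count of 0 was replaced by 0.5. The study's no-replicate call rests on simulated replicates and was not used. Code was tested on simulated data. Named genes are the 3 members, the 5 nearest in pattern to each, genes within 100 kb, and genes of the lists discussed. The members and lists, the latter from general knowledge, were chosen with earlier results of these data known. Alternatives were other scalings (total counts, DESeq2 1.42.0 size factors, upper quartile, TMM on 2 libraries), 1 CPM added, other filters and fold alone.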

Additional observations from a re-analysis of the deposited data

Results flagged for a closer look

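Ccl22 was drawn out because its regorafenib ratio had another sign in M0 than in M1 and M2. The log2 ratio was −0.95 in M0 (−2.88 to 0.78, on 9 and 5 counts), 2.34 in M1 and 1.62 in M2. The counting intervals of the differences left out 0 (3.29, 1.71 to 4.87, for M1 minus M0, and 2.57, 0.97 to 4.17, for M2 minus M0), and the M0 interval itself held 0. With 1 library per condition, the difference between states was not tested over replicates.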

How the results depend on the processing

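With 1 library per condition no library could be left out. Within a state there are no replicates to pair. A fit of the drug with state as a block, which takes the 3 states as replicates, could be made and was not run, since the genes were chosen with these ratios known. No ratio changed sign under another scaling or with 1 CPM added, and 68 of the 80 alternative values of the log2 ratios, 15 of 15 of the differences, 7 of 8 of the fold bounds, 40 of 42 of the counts of genes called and 61 of 63 of the counts per list stayed within the 95% counting interval of the reported value or, for counts of genes, within 1.5 times of it. These intervals are wide where counts are low.

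Adding 1 CPM to both values, which pulls low genes toward 0, gave regorafenib log2 ratios of 0.82 for Ccl24 in M0, 3.25 for Ccl17 in M1, and 1.09 for Ccl17 and 2.4 for Ccl24 in M2. Against M0 in the controls it gave 0.75 for Ccl17 and 5.31 for Ccl22 in M1, and 2.14 for Ccl22 and 0.41 for Ccl24 in M2. With regorafenib it gave 7.79 for Ccl22 and −0.80 for Ccl24 in M1, and 3.75 for Ccl22 and 1.99 for Ccl24 in M2. Of the ratios called, these values are under 2-fold for Ccl24 with regorafenib in M0, for Ccl17 in M1 and Ccl24 in M2 over M0 in the controls, and for Ccl24 in M1 over M0 with regorafenib. Among ratios not called, Ccl22 with regorafenib in M0 went from −0.95 to −0.17 and Ccl17 in M2 over M0 in the controls from 1.75 to 0.10. Scaling by total counts moved the bound for Ccl17 in M1 over M0 with regorafenib to 128-fold. It moved the ratios of all genes by −0.44 in M1 over M0 in the controls and by −0.41 with regorafenib, and upper quartile scaling moved the former by 0.14. The share of calls that were higher went from 47.3% to 29.3% and from 44.2% to 27.7% with total counts. By fold alone, 1185 genes were called with regorafenib in M1 (518 reported) and 1713 in M2 over M0 with regorafenib (1130 reported). In M0 with regorafenib, 1 GM-CSF gene was called with DESeq2 size factors (2 reported, Csf2rb2 lost) and 1 dendritic cell gene with upper quartile scaling (2 reported, Zbtb46 lost). By Pearson r, 1 of the 5 genes nearest to Ccl17, 0 of those nearest to Ccl22 and 2 of those nearest to Ccl24 were shared. Except where construction shows it, the cause was not tested. Counts of 1 to 4 in the lower library limit several Ccl17 and Ccl24 ratios.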

Other observations

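Other genes that IL-4 is known to induce in macrophages were called in both directions beside the 3 chemokines in M2. With regorafenib in M2, Retnla (log2 ratio 2.22), Chil3 (1.22) and Pdcd1lg2 (2.52, 2.06 to 3.0), which encodes the PD-1 ligand PD-L2, were higher, as Ccl17, Ccl22 and Ccl24 were. The lectin gene Mgl2 (−2.34) and the E-cadherin gene Cdh1 (−2.51, −2.77 to −2.26) were lower. These calls have no replicate check, and not every gene of the list is reported here.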
